A study of Mus musculus with 2 samples.

Results

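Cajal-Retzius (CR) cells that carried a strong immediate early response were selected on their own transcripts: a cell was called high when it held at least 10 UMIs (tags by which captured RNA molecules are counted) summed over *Fos*, *Fosb*, *Npas4* and *Nr4a1*, and low when it held at most 2. Of 1375 CR cells in 2 libraries, 240 were high, 546 were low and the others lay between. The high cells numbered 176 of 995 in the control library (17.7%, 95% interval 15.4 to 20.2) and 64 of 380 in the knockout library (16.8%, 13.2 to 21.0). The 4 genes and their summed count chose the cells, so their levels in high and low cells are a description and support nothing. The same holds for every comparison of high with low cells below, since all genes were read in the cells that were sorted into classes.

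Both groups were hippocampal cells of mice at P14, dissociated with papain, sorted as DAPI- tdT+ and captured with 10x 3' chemistry. The control library came from 4 pooled ΔNp73-Cre; Cicflox/+; tdT mice (conditional heterozygous, 3 males and 1 female) and the knockout library from 4 pooled ΔNp73-Cre; Cicflox/flox; tdT littermates (2 males and 2 females). Both therefore carried the ΔNp73-Cre driver, the Cre-dependent tdT reporter and at least 1 floxed allele of *Cic*, which encodes the transcriptional repressor Capicua. The driver acts from the embryonic progenitors of CR cells onward, and tdT marks cells by that history. Recombination of *Cic* was not complete in every cell: the paper reports CIC lost from most but not all hippocampal CR cells of the knockout line. There was 1 library per genotype, so no p-value was computed and no difference between genotypes had a replicate check. All intervals cover counting error at 95% and nothing else. A barcode counted as a CR cell with at least 2000 UMIs, a share of mitochondrial (mt-) UMIs of at most 8% and at least 5 UMIs of *Reln*. Of 1011 control and 406 knockout barcodes with 2000 UMIs, 8 and 15 had too many mitochondrial UMIs and 8 and 11 had too few *Reln* UMIs. Cells held a median of 6246 UMIs (range 2117 to 31769) in the control and 6752 UMIs (2769 to 33453) in the knockout, and no barcode was shared between the libraries.

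CR cells are early-born neurons of the marginal zone and of the hippocampal fissure that secrete reelin, the glycoprotein that guides the layering of the cortex and hippocampus, and most are lost in the first weeks after birth. Immediate early genes are transcribed within minutes of a stimulus from factors already in the cell, without new protein synthesis. Calcium entry and the ERK pathway reach them through CREB, SRF and MEF2. FOS and FOSB pair with JUN proteins as the AP-1 factor, NR4A1 is an orphan nuclear receptor, and NPAS4 is a neuronal factor that is induced by calcium entry in particular. They switch on a later set of effector genes that act on synapses, secreted peptides and signalling. Tissue dissociation can induce many of the same genes, and when the transcripts of these cells were induced cannot be told from the counts.

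The choice of cells required *Reln*, so its presence is no check of the cell type. *Reln* stood at 7144 CPM in high and 8833 CPM in low control cells, and at 6782 and 8534 CPM in the knockout. *Trp73*, the transcription factor gene whose promoter drives the Cre line, stood at 443 and 516 CPM in the control and 456 and 594 CPM in the knockout. Here and below, CPM (counts per 1e6) is the summed UMI count of a gene over the cells of a class relative to all their UMIs outside mitochondrial and ribosomal protein genes and the 4 genes of the class, which are counted in only where their own CPM is given. Markers of other cells stayed low in high cells: the 7 GABAergic markers summed to 3.04 CPM in control high cells and 0 in knockout high cells, and the sums of the other lists, from granule and pyramidal neurons to erythrocytes, were at most 87.6 CPM (mural cells) in the control and 104 CPM (mural cells) in the knockout. In low cells the mural markers summed to 74.3 CPM (control) and 74.0 CPM (knockout), below high cells in both. The 7 astrocyte markers summed to 75.5 CPM in high and 94.6 CPM in low control cells, and to 102 and 83.0 CPM in the knockout. Of these 7, 3 were at 0 in control high cells and 4 in knockout high cells. Of the 63 markers, 11 had enough UMIs to be compared between classes, and none of the GABAergic, oligodendrocyte and ependymal lists did. A gene is called here where it was at least 1.5-fold different between high and low cells, in the same direction and with an interval apart from 1, in both libraries. Of these 11, none was called higher (6.94% of all genes tested were) and 1, *Fibcd1* of the granule and pyramidal list, was called lower (1.69% of all), so the calls say little about other cells.

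**Figure D1:**
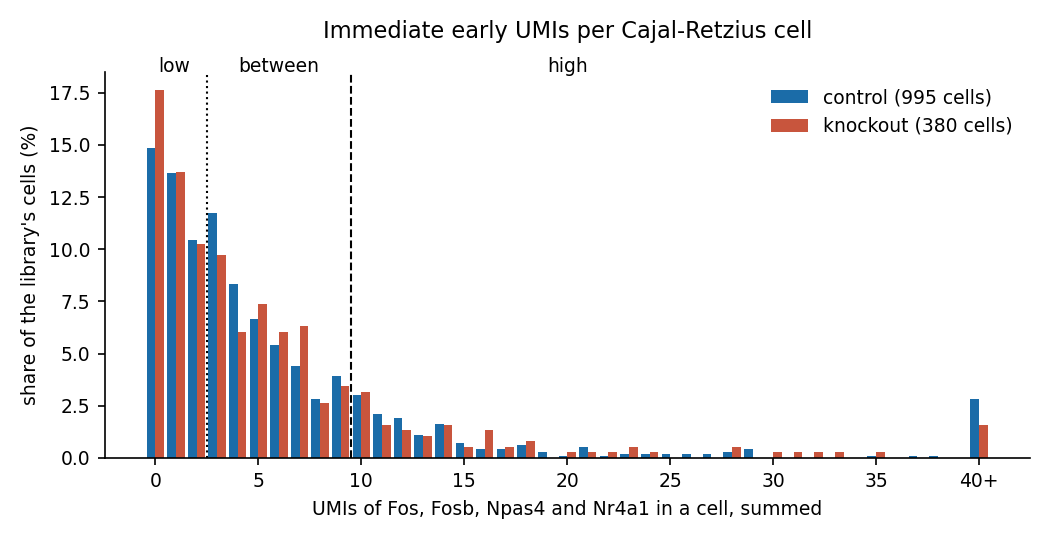
Share of each library's CR cells (vertical axis, percent) by the UMIs of Fos, Fosb, Npas4 and Nr4a1 summed per cell (horizontal axis; the last bar pools 40 UMIs or more); the dotted and dashed lines mark the limits of low and high cells. The sums fall without a gap at either limit, and 28 control and 6 knockout cells reach 40 UMIs.

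The sums formed a continuum with a long tail. The median over all cells was 3 UMIs in both libraries, the median of high cells was 14 UMIs in both, and the highest cells held 123 UMIs (control) and 115 UMIs (knockout). At the upper limit, 39 control and 13 knockout cells held 9 UMIs and 30 and 12 cells held 10 UMIs. At the lower limit, 104 and 39 cells held 2 UMIs and 117 and 37 held 3 UMIs. *Fos* made up 59.7% of these UMIs in control high cells and 62.0% in knockout high cells, *Fosb* 18.4% and 17.0%, *Nr4a1* 12.8% and 11.7%, and *Npas4* 9.16% and 9.23%. *Fos* stood at 79.9 CPM in low, 389 CPM in between and 1420 CPM in high control cells, and at 61.0, 406 and 1349 CPM in the knockout. *Fosb* went from 35.4 CPM in low to 438 CPM in high control cells and from 31.0 to 370 CPM in the knockout. *Npas4* went from 13.4 to 218 CPM and from 12 to 201 CPM, and *Nr4a1* from 19.9 to 304 CPM and from 26.0 to 255 CPM. After each cell was thinned to 3000 UMIs, *Fos* was seen in 89.1% of control and 93.8% of knockout high cells, whereas *Npas4* was seen in 37.1% and 39.1%.

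Each of the 4 genes was also read with classes cut on the other 3 (at least 5 UMIs against at most 1). These values come from unthinned counts with respiratory-high cells (defined below) included. They describe the genes that chose the cells and support nothing. *Fos* was then 5.92-fold higher in the control (5.39 to 6.51) and 5.81-fold in the knockout (5.04 to 6.70), *Fosb* 4.33-fold and 4.81-fold, *Npas4* 4.96-fold and 6.65-fold, and *Nr4a1* 4.22-fold and 3.72-fold. Across thinned cells, the Spearman correlation of *Fos* with *Fosb* was 0.25 in 979 control cells and 0.27 in 377 knockout cells, and that of *Fos* with *Npas4* 0.15 and 0.16. These correlations are weak, the counts are sparse and all cells of a library share its preparation, so nothing is read from them.

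The promoters of *Fos*, *Fosb* and *Nr4a1* are shown because they hold the core of the cAMP response element (CRE), the sequence bound by CREB, as that of *Npas4* does. Motifs were searched in the 250 bases before the RefSeq start on GRCm38.p6, and the stretch upstream of every annotated exon of the gene is shown, 5′ to 3′ on the strand of the gene. In GENCODE M21 the whole *Npas4* window lies in an exon, and it is not shown. Capitals mark matches, on either strand, to the CRE core TGACG, the full CRE TGACGTCA (which contains the core), AP-1 (TGANTCA), the CArG box bound by SRF, the NR4A element AAAGGTCA, the EGR element GCGTGGGCG and the CIC octamers TGAATGAA and TGAATGGA, and the TATA box TATAAA on the strand of the gene.
Fos (chr12:85473640-85473889, plus strand): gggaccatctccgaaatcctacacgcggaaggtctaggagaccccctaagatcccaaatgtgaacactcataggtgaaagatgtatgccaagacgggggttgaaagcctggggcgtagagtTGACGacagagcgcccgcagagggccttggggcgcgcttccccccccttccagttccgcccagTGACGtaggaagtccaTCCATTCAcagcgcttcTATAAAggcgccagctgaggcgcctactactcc
Fosb (chr7:19310052-19310295, minus strand): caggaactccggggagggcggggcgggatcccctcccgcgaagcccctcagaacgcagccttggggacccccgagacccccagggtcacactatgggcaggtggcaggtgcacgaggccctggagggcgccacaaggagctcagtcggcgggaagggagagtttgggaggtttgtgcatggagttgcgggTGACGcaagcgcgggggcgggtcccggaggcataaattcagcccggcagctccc
Nr4a1 (chr15:101266596-101266845, plus strand): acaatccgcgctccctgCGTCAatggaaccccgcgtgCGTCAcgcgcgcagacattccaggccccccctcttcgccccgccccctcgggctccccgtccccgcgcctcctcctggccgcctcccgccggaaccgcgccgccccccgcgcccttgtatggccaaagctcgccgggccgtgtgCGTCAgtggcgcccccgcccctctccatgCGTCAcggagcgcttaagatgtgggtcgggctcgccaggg
*Fos* held the core from -66 to -62 and from -129 to -125 (-1 is the base before the start), a CIC octamer on the other strand from -50 to -43 and a TATA box from -33 to -28. *Nr4a1* held 4 cores, *Npas4* 2 and *Fosb* 1. The core was found in 17.8% of all 32851 promoters and the CIC octamer ending in GGA in 1.01%. A match is a description of the letters and not a measured binding site.

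High cells held more RNA molecules than low cells. The median was 8349 UMIs in high and 5868 UMIs in low control cells, and 9461 and 6179 UMIs in the knockout. A fixed limit on a count favours deep cells: the share of high cells was 3.21% in the shallowest of 4 equal bins of control cells by UMIs and 40.6% in the deepest, and 8.42% and 41.1% in the knockout. With the summed count scaled to 6000 UMIs per cell, high cells made up 12.6% of the control and 9.74% of the knockout; with classes cut after thinning to 3000 UMIs (at least 5 UMIs), 17.3% and 14.1%. Cells read as male from Y-linked transcripts were high in 18.1% (control) and 18.4% (knockout), and cells read as female from *Xist* in 17.3% and 16.5%, so each sex held high cells at a share within the other's interval.

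Other properties differed between high and low cells, but not all changed in steps with the summed count. Ribosomal protein genes took 4.06% of all UMIs in high and 1.90% in low control cells (3.83% and 1.53% in the knockout). Listed nuclear RNAs took 5.75% and 7.05% (5.72% and 7.27%) of the UMIs outside mitochondrial and ribosomal protein genes, with the 4 class genes counted in. The median mitochondrial share was 2.56% and 3.33% (3.16% and 4.01%). In cells between the classes the ribosomal share was 1.41% in the control and 1.35% in the knockout, below both classes. The nuclear RNA share there was 7.48% and 7.23%, in the control above both classes. The part of these properties in the differences was not tested. Nuclear genes of the respiratory chain (98 genes for complexes I to V) took 2% or more of the UMIs in 74 control and 28 knockout cells, and 63.5% (51.5 to 74.4) and 64.3% (44.1 to 81.4) of these respiratory-high cells were high. Among the other cells, 14.0% (11.8 to 16.4) and 13.1% (9.73 to 17.0) were high. Respiratory-high cells made up 5.15% of low, 1.62% of between and 26.7% of high control cells, and 3.80%, 2.53% and 28.1% in the knockout. The respiratory-high cells were also the deepest, with medians of 13714 and 14927 UMIs against 6102 and 6441 UMIs in the others. They made up 9.09% of the control cells with 10 to 19 UMIs of the 4 genes, 37.0% of those with 20 to 39 and 26 of 28 cells with 40 or more (92.9%, 76.5 to 99.1). In the knockout the shares were 8.89%, 61.5% and 6 of 6. The cells with the largest early response in this count were thus nearly all respiratory-high. Whether the respiratory-high state, their depth or the early response sets the other differences was not tested. Calls below are therefore given with and without these cells for most lists, and ratios without them for some genes only. A ratio with no such statement is with all cells.

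Of 9408 genes with at least 30 UMIs in each library, 653 (6.94%) were at least 1.5-fold higher in high than in low cells with an interval above 1 in both libraries, and 159 (1.69%) were at least 1.5-fold lower with an interval below 1. Without respiratory-high cells, 133 genes (1.41%) were higher and 68 (0.723%) lower. Of the 653 genes, 77 were called higher in both settings, and of the 159 genes 35 were called lower in both. With each cell thinned to 3000 UMIs, 215 were higher and 39 lower, of which 205 and 24 were shared with the unthinned counts. Thinning leaves fewer UMIs per gene and wider intervals under the same rule, so the fall in calls does not measure the part of depth. Taken alone, the control gave 1187 higher and 812 lower genes and the knockout 1061 and 649. Across 9405 genes the log2 ratios of the libraries had a Spearman correlation of 0.52, a description across genes, which are not independent.

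**Figure D2:**
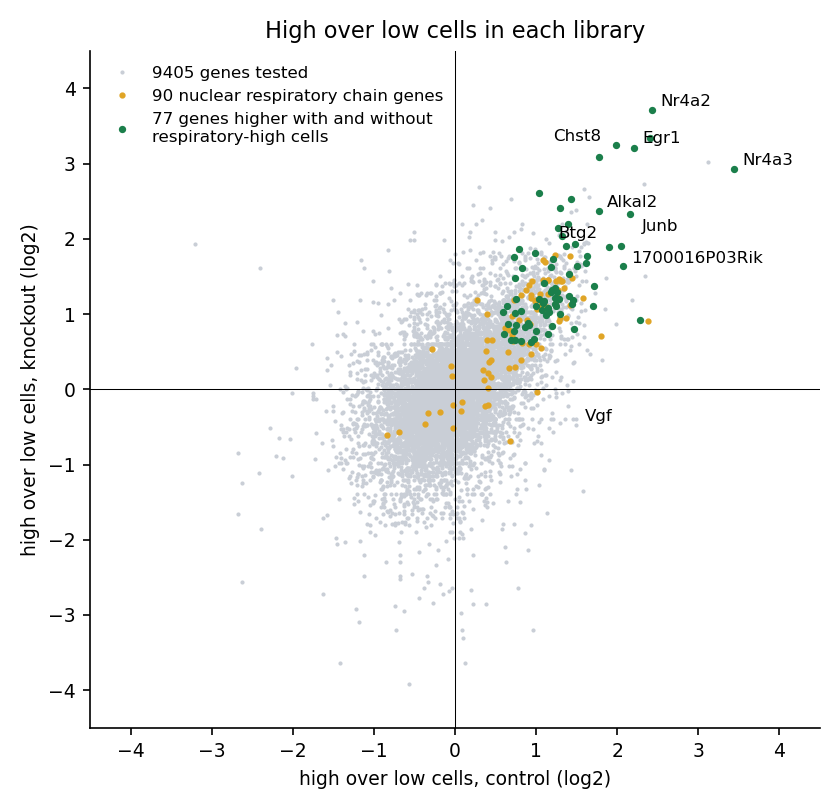
Log2 ratio of CPM in high over low cells, control (horizontal) against knockout (vertical), for 9405 genes; orange marks 90 nuclear respiratory chain genes, green the 77 genes called higher with and without respiratory-high cells, and 4 genes lie outside the axes. Nr4a3, Nr4a2, Egr1, Chst8 and Junb lie at the upper right, and Vgf lies right of zero but below it.

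Early transcription factors that the classes did not use were among the most raised genes. Positions of genes here and below are those of GENCODE M21 on GRCm38. *Nr4a3*, an orphan receptor of the same family as *Nr4a1* (chr4:48045153-48086447), stood at 6.04 CPM in low, 55.5 CPM in between and 65.7 CPM in high control cells, and at 11.0, 71.1 and 83.8 CPM in the knockout. It was 10.9-fold higher in high than low control cells (6.21 to 20.6) and 7.62-fold in the knockout (3.94 to 16.1), and 13.3-fold and 8.59-fold without respiratory-high cells. Cells between the classes already reached most of the high level. In cells with 40 or more UMIs of the 4 genes, nearly all respiratory-high, *Nr4a3* stood at 42.7 CPM (control, 17 UMIs) and 140 CPM (knockout, 14 UMIs). *Nr4a2*, the third receptor of the family (chr2:57106830-57124003), went from 6.91 to 37.1 CPM in the control (5.37-fold, 3.06 to 9.99) and from 5.00 to 65.5 CPM in the knockout (13.1-fold, 5.2 to 42.4). Both tested members of the list of other Nr4a genes were thus called, with and without respiratory-high cells. Of all genes tested, 6.94% and 1.41% were called higher in these settings.

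Of 10 AP-1 and ATF genes, 6 had enough UMIs and 5 were called higher, beside 6.94% of all genes tested: *Junb*, *Jund*, *Jun*, *Fosl2* and *Atf3*. *Junb*, an AP-1 partner of FOS (chr8:84974484-84978718), stood at 99.7 CPM in low, 236 CPM in between and 444 CPM in high control cells, and at 85.0, 236 and 428 CPM in the knockout, which made it 4.45-fold (3.84 to 5.19) and 5.04-fold (3.94 to 6.50) higher. Without respiratory-high cells *Junb* was 4.37-fold and 4.92-fold higher. *Jund*, which most cells express at rest, was 3.06-fold and 3.20-fold higher with all cells but 1.85-fold and 1.67-fold without respiratory-high cells. *Jun* was 2.75-fold higher in the control (2.31 to 3.29) and 1.74-fold in the knockout (1.37 to 2.21), and 1.64-fold and 1.56-fold without respiratory-high cells. *Fosl2* was 2.05-fold and 2.29-fold higher. *Atf3*, a stress-induced repressor of the family, rested on few molecules: 43 UMIs in control and 13 in knockout high cells, with 32.7% of the control UMIs of high and low cells in 1 cell, and it was not called without respiratory-high cells. There *Jdp2*, a further member, was called in its place at 1.69-fold and 1.59-fold. The median log2 ratio of the 6 genes was 1.54 in the control and 1.44 in the knockout, where that of all tested genes was -0.04 and -0.03.

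*Egr1*, a zinc-finger early gene driven by ERK and SRF, stood at 48.8 CPM in low, 69.7 CPM in between and 225 CPM in high control cells, and at 12, 23.7 and 111 CPM in the knockout. It was 4.60-fold (3.72 to 5.73) and 9.27-fold (5.00 to 18.8) higher in high cells. By the summed count of the 4 genes it was uneven: in the control it stood at 130 CPM in cells with 10 to 19 UMIs of the 4 genes, at 243 CPM in those with 20 to 39 and at 437 CPM in those with 40 or more, and in the knockout at 57.7 CPM in cells with 10 to 19, 17.2 CPM (3 UMIs, 3.54 to 50.2) in those with 20 to 39 and 479 CPM in those with 40 or more, the last from 48 of its 73 UMIs in high cells. Of its knockout UMIs in high and low cells, 22.4% came from 1 cell. Without respiratory-high cells it was 3.37-fold and 4.89-fold higher. *Egr3* had no UMI in high or low cells of either library.

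**Figure D3:**
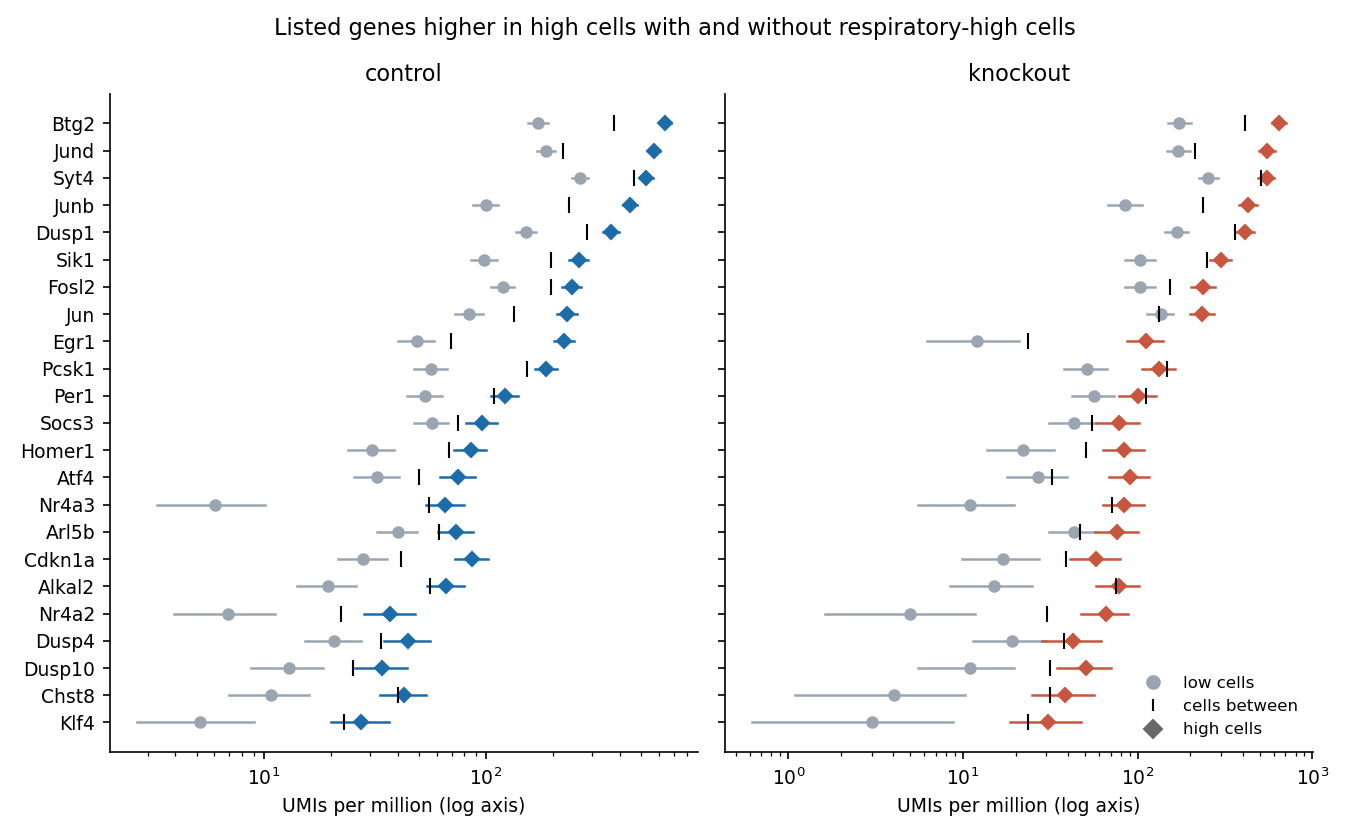
CPM (log axis) of 23 listed genes called higher in high cells both with and without respiratory-high cells, in low cells (circles), cells between (ticks) and high cells (diamonds) of each library, with 95% Poisson intervals for low and high cells. In the control all 23 ticks lie between the circle and the diamond, and in the knockout those of Jun, Pcsk1 and Per1 do not.

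The list of other early regulators held 38 genes, of which 27 had enough UMIs. With all cells 11 were called higher (6.94% of all genes tested were) and none lower, and without respiratory-high cells 6 were called (1.41% of all). *Btg2*, an antiproliferative early gene (chr1:134075170-134079120), was the most abundant: 172 CPM in low, 377 CPM in between and 640 CPM in high control cells, and 173, 410 and 643 CPM in the knockout. It was 3.72-fold higher in both libraries (3.31 to 4.19 and 3.11 to 4.46), and 3.84-fold and 3.40-fold without respiratory-high cells. *Sik1*, a kinase that is induced by CREB and restrains CREB coactivators (chr17:31844250-31855804), rose from 98.4 to 261 CPM (2.65-fold, 2.25 to 3.13) and from 103 to 299 CPM (2.90-fold, 2.27 to 3.72). Its relative *Sik2*, outside the lists, was 1.87-fold and 1.81-fold higher. *Klf4* was 5.29-fold (2.75 to 11.0) and 10.2-fold (3.01 to 53.4) higher on 45 and 20 UMIs in high cells, with 30.4% of its knockout UMIs in 1 cell, *Per1*, a clock gene, 2.29-fold and 1.80-fold, and *Arl5b* 1.82-fold and 1.77-fold. *Ier2* (2.92-fold and 3.41-fold), *Klf9* (1.70-fold and 1.79-fold), *Gadd45b*, *Mcl1*, *Nfil3* and *Tiparp* were called with all cells only, and *Crem*, itself a CRE-binding factor, without respiratory-high cells only (1.93-fold and 1.95-fold). *Arc*, the synaptic early gene used most often as a mark of active neurons, had 8 UMIs in control high cells and none in knockout high cells. Neither *Arc* nor *Egr3* therefore had enough UMIs to be read in these cells.

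Among later effectors, 15 of 26 genes had enough UMIs, and 6 were called higher and none lower with all cells, where 6.94% of all genes were called higher. *Homer1*, a synaptic scaffold whose short form is induced by activity (chr13:93299635-93405129), went from 30.7 to 85.2 CPM in the control (2.78-fold, 2.07 to 3.75) and from 22.0 to 83.8 CPM in the knockout (3.81-fold, 2.28 to 6.56). In cells with 40 or more UMIs of the 4 genes, nearly all respiratory-high, *Homer1* stood at 35.2 CPM (control, 14 UMIs) and 99.8 CPM (knockout, 10 UMIs). The forms of *Homer1* cannot be told apart in these counts. *Pcsk1*, a protease that matures neuropeptides, was 3.29-fold and 2.60-fold higher, *Syt4*, a synaptotagmin of dense-core vesicles, 1.99-fold and 2.16-fold, and *Cdkn1a*, a cell cycle inhibitor, 3.08-fold and 3.41-fold. These 4 were also called without respiratory-high cells, and *Rheb* only with them. *Rgs2*, a brake on G-protein signalling, was 8.69-fold (3.64 to 25.2) and 8.13-fold (3.35 to 23.8) higher on 37 and 32 UMIs in high cells, and was not called without respiratory-high cells. *Bdnf* had 5 UMIs in control high cells and 0 in knockout high cells. *Penk*, an opioid peptide gene, was 0.47-fold and 0.52-fold without respiratory-high cells and was called lower there, but with all cells it stood at 0.87-fold (0.62 to 1.22) in the knockout.

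Of 17 Sprouty, Spred and Dusp genes listed for feedback on MAP kinase signalling, 9 had enough UMIs and 4 were called higher (6.94% of all genes were). All of them were Dusp genes, for phosphatases that switch MAP kinases off. Of the Sprouty and Spred genes only *Spry2*, *Spred1* and *Spred2* had enough UMIs. None of them was called, which for so few genes is near the background, so the families cannot be compared. *Dusp1* stood at 152 CPM in low and 365 CPM in high control cells (2.40-fold, 2.10 to 2.74) and at 167 and 408 CPM in the knockout (2.44-fold, 2.01 to 2.98). *Dusp4* was 2.14-fold and 2.25-fold higher and *Dusp10* 2.63-fold and 4.57-fold; these 3 were also called without respiratory-high cells. *Dusp8*, at 1.53-fold and 1.64-fold, was not, and stood there at 1.01-fold and 0.72-fold.

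The host transcript of 2 microRNAs was among the genes outside the lists with the strongest calls. *1700016P03Rik* (chr11:75172560-75177633, plus strand, annotated in GENCODE M21 as a processed transcript) stood at 51.8 CPM in low, 174 CPM in between and 214 CPM in high control cells, and at 57.0, 141 and 213 CPM in the knockout. Within high cells it fell with the summed count of the 4 genes when respiratory-high cells were included. At 10 to 19, 20 to 39 and 40 or more UMIs it stood at 266, 199 and 100 CPM in the control. In the knockout the levels were 247, 183 and 140 CPM. Without respiratory-high cells *1700016P03Rik* stood at 314 CPM at 10 to 19 UMIs and 307 CPM at 20 to 39 UMIs in the control. The knockout levels there were 285 CPM and, in 5 cells, 502 CPM (328 to 736). At 40 or more UMIs only 2 such control cells remained, with 2 UMIs of the transcript. It was 4.12-fold (3.34 to 5.12) and 3.74-fold (2.73 to 5.19) higher, and 5.62-fold and 5.29-fold without respiratory-high cells. The hairpins of miR-212 and miR-132, a pair known for induction through CREB in neurons, lie inside it. Their main mature products from RefSeq are shown on GRCm38.p6, 5′ to 3′, with the seed (bases 2 to 8) in capitals.
mmu-miR-132-3p (chr11:75173723-75173744, plus strand): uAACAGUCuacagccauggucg
mmu-miR-212-3p (chr11:75173443-75173464, plus strand): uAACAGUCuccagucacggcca
Both carry the same seed, AACAGUC. The transcript that holds them was measured here, and the microRNAs themselves were not.

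The rule for genes outside the lists took the 15 with the strongest lower bound. Besides *1700016P03Rik* it gave *Nfatc2*, a calcineurin-dependent factor (2.84-fold and 3.13-fold; 3.94-fold and 3.87-fold without respiratory-high cells), and *Mlf1* (3.43-fold and 8.53-fold, the latter on 28 and 5 UMIs). The other 12 were *Tmsb4x*, *Tmsb10*, *Ptma*, *Tpt1*, *Tceal9*, *Selenow*, *Bex1*, *Bex2*, *Basp1*, *Cfl1*, *H3f3a* and *Chchd2*, none of which was called without respiratory-high cells. *Tmsb4x*, which binds actin monomers, stood at 367 CPM in low, 254 CPM in between and 1122 CPM in high control cells. It was 3.06-fold and 3.87-fold higher with all cells and 1.34-fold and 1.30-fold without respiratory-high cells. Nuclear respiratory chain genes, which define the cells left out, were called higher in 53 of 90 cases with all cells, beside 6.94% of all genes tested. Without respiratory-high cells 0 of 90 were called, near the 1.41% of all genes. Their median log2 ratio was 0.93 (control) and 0.92 (knockout) with all cells and -0.0039 and -0.10 without respiratory-high cells.

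**Figure D4:**
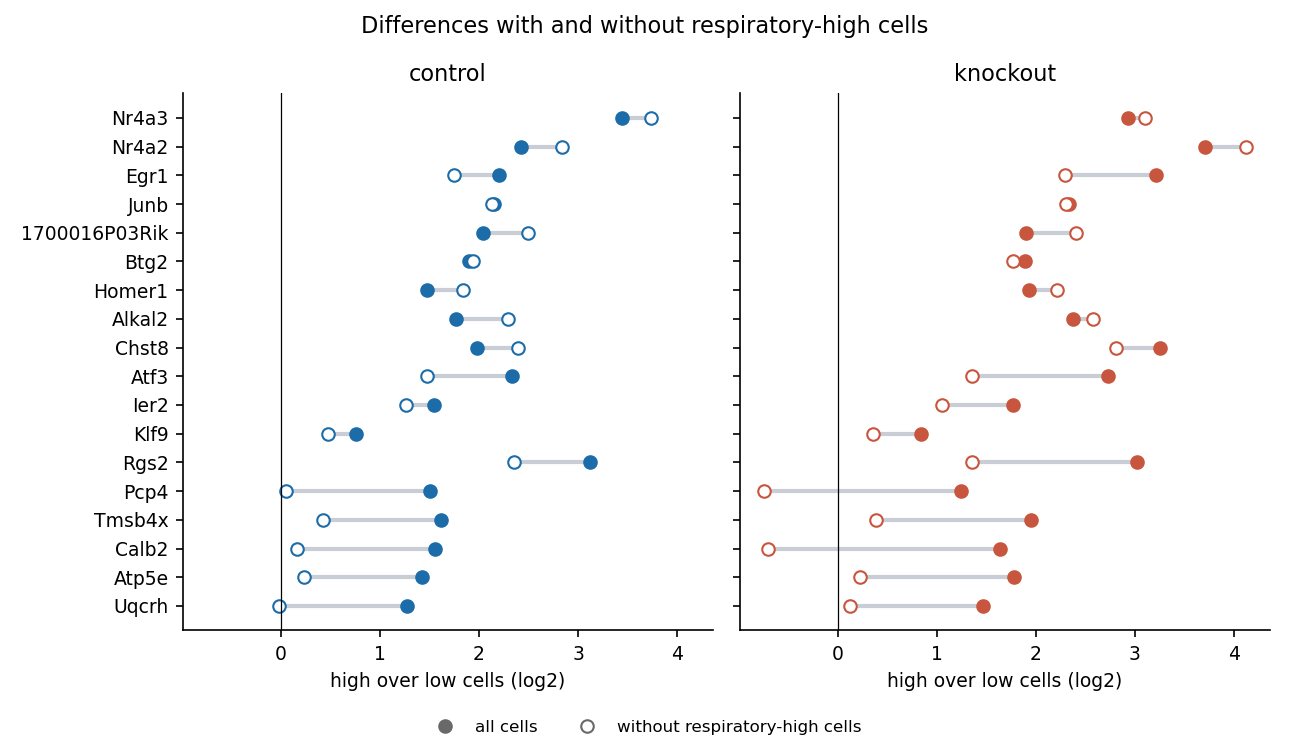
Log2 ratio of high over low cells with all cells (filled) and without respiratory-high cells (open) for 18 genes in each library. Nr4a3, Nr4a2, 1700016P03Rik, Homer1 and Alkal2 have larger ratios without these cells in both libraries, while Pcp4, Tmsb4x, Calb2, Atp5e and Uqcrh move towards or past zero.

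Genes that led the comparison without respiratory-high cells were chosen after their values were seen. They included *Pde10a*, a phosphodiesterase (6.15-fold and 2.16-fold), *Sorcs1*, a sorting receptor (3.20-fold and 3.13-fold), *Emd*, the nuclear envelope protein emerin (4.38-fold and 3.17-fold), *Coq10b* (2.77-fold and 2.83-fold), *Sik2* (2.36-fold and 2.14-fold), *Skil*, a repressor of SMAD signalling (2.03-fold and 2.86-fold), and *Map3k5*, a stress kinase (2.76-fold and 5.82-fold). All 7 were also called with all cells.

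The promoters of genes called higher in both settings held the CRE more often by count. Of the 77 genes, 61 had a RefSeq promoter, 73 promoters in all, and 9 of these (12.3%) held the full CRE, against 270 of 9679 promoters (2.79%) of the genes tested and 508 of 32851 (1.55%) of all promoters. The CRE core was in 46.6%, 27.8% and 17.8%. Over all 133 genes called higher without respiratory-high cells, 7.81% of 128 promoters held the full CRE and 35.2% the core. Among genes called higher with all cells only, 4.79% of 564 promoters held the full CRE and 36.2% the core. Among those called lower without respiratory-high cells, 0 of 71 held the full CRE and 15.5% the core. AP-1 (5.48%, 3.95% and 6.75%) and the CArG box (0%, 1.08% and 1.47%) did not stand out in this window. These shares were counted after the genes were chosen and carry no test. The 9 genes were *Arl5b*, *Btg2*, *Ccnl1*, *Dusp1*, *Mlf1*, *Pcsk1*, *Rap1b*, *Zbtb11* and *Zdbf2*. The promoters of 4 of them with values above are shown with the same marks.
Btg2 (chr1:134079156-134079405, minus strand): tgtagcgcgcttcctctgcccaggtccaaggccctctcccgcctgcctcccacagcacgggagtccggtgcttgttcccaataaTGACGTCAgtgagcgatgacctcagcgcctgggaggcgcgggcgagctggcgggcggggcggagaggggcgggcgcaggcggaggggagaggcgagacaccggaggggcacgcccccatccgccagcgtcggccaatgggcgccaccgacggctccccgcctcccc
Dusp1 (chr17:26508520-26508722, minus strand): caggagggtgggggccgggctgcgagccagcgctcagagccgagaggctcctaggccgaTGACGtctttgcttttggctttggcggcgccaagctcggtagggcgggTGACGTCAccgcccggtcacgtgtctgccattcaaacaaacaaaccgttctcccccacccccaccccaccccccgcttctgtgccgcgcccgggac
Arl5b (chr2:15055070-15055239, plus strand): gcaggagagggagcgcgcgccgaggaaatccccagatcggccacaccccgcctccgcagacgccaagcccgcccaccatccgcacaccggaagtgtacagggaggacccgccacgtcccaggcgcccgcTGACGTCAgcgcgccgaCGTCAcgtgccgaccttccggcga
Pcsk1 (chr13:75089607-75089825, plus strand): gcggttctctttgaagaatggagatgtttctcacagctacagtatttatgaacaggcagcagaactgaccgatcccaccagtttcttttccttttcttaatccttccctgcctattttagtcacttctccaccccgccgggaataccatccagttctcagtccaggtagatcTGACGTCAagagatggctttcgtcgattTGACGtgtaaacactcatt
The full CRE lies from -166 to -159 in *Btg2*, from -143 to -136 in *Dusp1*, from -121 to -114 in *Arl5b* and from -78 to -71 in *Pcsk1*.

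Of 6 genes listed as possible marks of CR cell subtypes, 3 were called higher in high cells (*Chst8*, *Alkal2* and *Pcp4*) beside 6.94% of all genes, and *Cck*, *Grik1* and *Gabrg3* were not. The paper's text names *Cck*, *Grik1*, *Gabrg3* and *Pcp4* for its clusters, but not *Chst8* or *Alkal2*. *Chst8*, a sulfotransferase gene (chr7:34674468-34812711), stood at 10.8 CPM in low and 42.6 CPM in high control cells (3.95-fold, 2.47 to 6.51) and at 4.0 and 38.1 CPM in the knockout (9.52-fold, 3.29 to 37.6, on 25 and 4 UMIs). *Alkal2*, a ligand of the ALK receptor (chr12:30884322-30893854), was 3.41-fold (2.39 to 4.95) and 5.18-fold (2.87 to 9.92) higher. In control cells with 40 or more UMIs of the 4 early genes, *Chst8* and *Alkal2* stood at 25.1 CPM (10 UMIs) and 22.6 CPM (9 UMIs). In such knockout cells they stood at 29.9 CPM (3 UMIs) and 69.8 CPM (7 UMIs). Of these cells 26 of 28 and 6 of 6 were respiratory-high. Without respiratory-high cells, *Chst8* and *Alkal2* stood at 66.3 and 139 CPM in control cells with 20 to 39 UMIs, and at 61.5 and 90.4 CPM at 10 to 19. In the knockout the levels were 38.6 and 232 CPM (5 cells) against 27.8 and 71.2 CPM. Read per cell after thinning to 3000 UMIs, 29.3% (21.8 to 37.8) of 133 control cells with a UMI of either gene were high, against 16.1% (13.7 to 18.7) of 846 without, and in the knockout 30.8% (18.7 to 45.1) of 52 against 14.8% (11.1 to 19.1) of 325. The knockout intervals overlap. Without respiratory-high cells the shares were 27.9% and 11.8%, and 26.5% and 11.0%. *Cck*, *Grik1* and *Gabrg3*, read the same way, gave shares whose intervals overlapped: for *Gabrg3*, 16.7% with and 18.8% without a UMI in the control and 16.5% and 17.4% in the knockout. *Chst8* alone gave 29.2% (18.6 to 41.8) with and 17.1% (14.7 to 19.7) without a UMI in the control. *Alkal2* alone gave 26.5% (17.4 to 37.3) and 17.1% (14.7 to 19.7), so that for each gene alone the intervals overlapped too. They also overlapped in the knockout. Without respiratory-high cells those of *Chst8* were apart in the control, at 29.2% (18.6 to 41.8) and 12.9% (10.8 to 15.4). *Pcp4*, a gene for a small neuronal peptide, was 2.84-fold and 2.37-fold higher with all cells but 1.04-fold and 0.60-fold without respiratory-high cells. Whether *Chst8* and *Alkal2* mark a cell type or were induced with the early genes cannot be told apart in 1 time point.

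Some identity genes of CR cells were called with all cells. Of 19 genes, 17 had enough UMIs, 12 were not called and 5 were called higher beside 6.94% of all genes (*Calb2*, *Nhlh1*, *Nhlh2*, *Zic2* and *Nr2f2*). Without respiratory-high cells none was called, near the 1.41% of all genes called higher there. *Calb2*, the calcium buffer calretinin, was 2.94-fold and 3.12-fold higher with all cells and 1.12-fold and 0.61-fold without.

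For receptors that could carry a stimulus the counts were too small to read: with 6.94% of all genes called higher and 1.69% lower, 0 calls among so few genes is near the background. None of 9 glutamate receptor genes and none of 8 GABA and glycine receptor genes with enough UMIs passed in either direction, with median log2 ratios of -0.26 and -0.18 in both libraries. Of 10 calcium channel genes none passed with all cells, and *Cacna1e*, the R-type channel, was called without respiratory-high cells (4.38-fold and 2.89-fold, from 15 and 15 UMIs in low cells). Of 18 factors that carry ERK, CREB and SRF signals, *Mapk3* was called with all cells (1.53-fold and 2.23-fold) and *Mef2d* without respiratory-high cells (1.61-fold and 1.71-fold).

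Some stress genes were called, beside 6.94% of all genes tested with all cells and 1.41% without respiratory-high cells. Of 15 heat shock genes, *Hspa8* (1.56-fold and 1.60-fold) and *Hspe1* (1.71-fold and 1.66-fold) were called with all cells and none without respiratory-high cells. The inducible *Hspa1a* stood at 38.0 CPM in low and 28.0 CPM in high control cells, with an interval of the ratio from 0.50 to 1.06, and at 37.0 and 27.4 CPM in the knockout. Without respiratory-high cells its ratio was 0.0995 in the control and 1.24 in the knockout. Of 13 tested genes of the integrated stress response, *Atf4* (2.31-fold and 3.33-fold), *Ppp1r15a* and *Cebpb* were called, and *Atf4* alone without respiratory-high cells (1.82-fold and 2.55-fold). Of 7 NF-κB and cytokine genes, *Socs3*, a feedback inhibitor of cytokine signalling, was called in both settings (1.68-fold and 1.81-fold with all cells). *Bcl2l11*, which encodes the BH3 protein BIM, was 4.27-fold higher in the knockout (2.52 to 7.5) and 1.41-fold in the control (0.94 to 2.11), with 23.7% of the knockout UMIs in 1 cell.

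Genes lower in high cells were fewer and weaker. The following led by the strength of their bounds. *Zfhx4*, a large transcription factor gene (chr3:5218526-5415857), stood at 177 CPM in low, 112 CPM in between and 79.7 CPM in high control cells, and at 145, 85.3 and 65.5 CPM in the knockout (0.45-fold in both; 0.51-fold and 0.60-fold without respiratory-high cells). *Kcnmb2*, a subunit that inactivates BK channels, was 0.34-fold and 0.47-fold, *Tbc1d4* 0.56-fold and 0.42-fold, *Ptprm* 0.52-fold and 0.46-fold, *Angpt1* 0.62-fold and 0.53-fold, and *Swt1* 0.55-fold and 0.37-fold. These were also called without respiratory-high cells. *Nrg1*, the neuregulin gene and the most abundant of them, fell from 3097 CPM in low to 1982 CPM in high control cells (0.64-fold, 0.61 to 0.67) and from 3052 to 1826 CPM in the knockout (0.60-fold, 0.56 to 0.64), but at 0.77-fold and 0.74-fold it was not called without respiratory-high cells; nor was *Col11a1*. *2310039L15Rik* had 5 and 0 UMIs in high cells against 47 and 28 in low cells, but 1 cell held 46.2% of its control and 75.0% of its knockout UMIs.

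Between the genotypes, the same classes were compared gene by gene, with 1 library each. *Junb*, *Btg2*, *Jund* and *1700016P03Rik* had knockout over control ratios in high cells of 0.96 (0.84 to 1.11), 1.01 (0.90 to 1.13), 0.96 (0.85 to 1.08) and 1.00 (0.82 to 1.22). Among other AP-1 and ATF genes, *Fosl2* stood at 0.97 (0.80 to 1.17) and *Atf3* at 0.76 (0.37 to 1.43) in high cells. *Jun* stood at 1.01 (0.83 to 1.22) in high and 1.60 (1.28 to 2.01) in low cells, and at 1.56 (1.17 to 2.06) in high cells without respiratory-high cells. *Jdp2* stood at 0.74 (0.58 to 0.94) in high cells. *Egr1* was lower in the knockout in every class: 111 against 225 CPM in high (0.50, 0.38 to 0.64), 23.7 against 69.7 CPM in between (0.34, 0.21 to 0.52) and 12 against 48.8 CPM in low cells (0.25, 0.12 to 0.45). Without respiratory-high cells the ratio in high cells was 0.37 (0.23 to 0.58). *Ier2* was lower too, at 0.65 (0.44 to 0.93) in high and 0.55 (0.31 to 0.95) in low cells. *Nr4a2* was higher in knockout high cells, at 65.5 against 37.1 CPM (1.77, 1.17 to 2.65; 1.83 without respiratory-high cells). *Rgs2* was at 48.8 against 22.5 CPM (2.17, 1.31 to 3.57), but without respiratory-high cells 14 and 5 UMIs remained and the ratio was 0.94 (0.27 to 2.77). These genes other than *Egr1* were named after their values were seen.

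**Figure D5:**
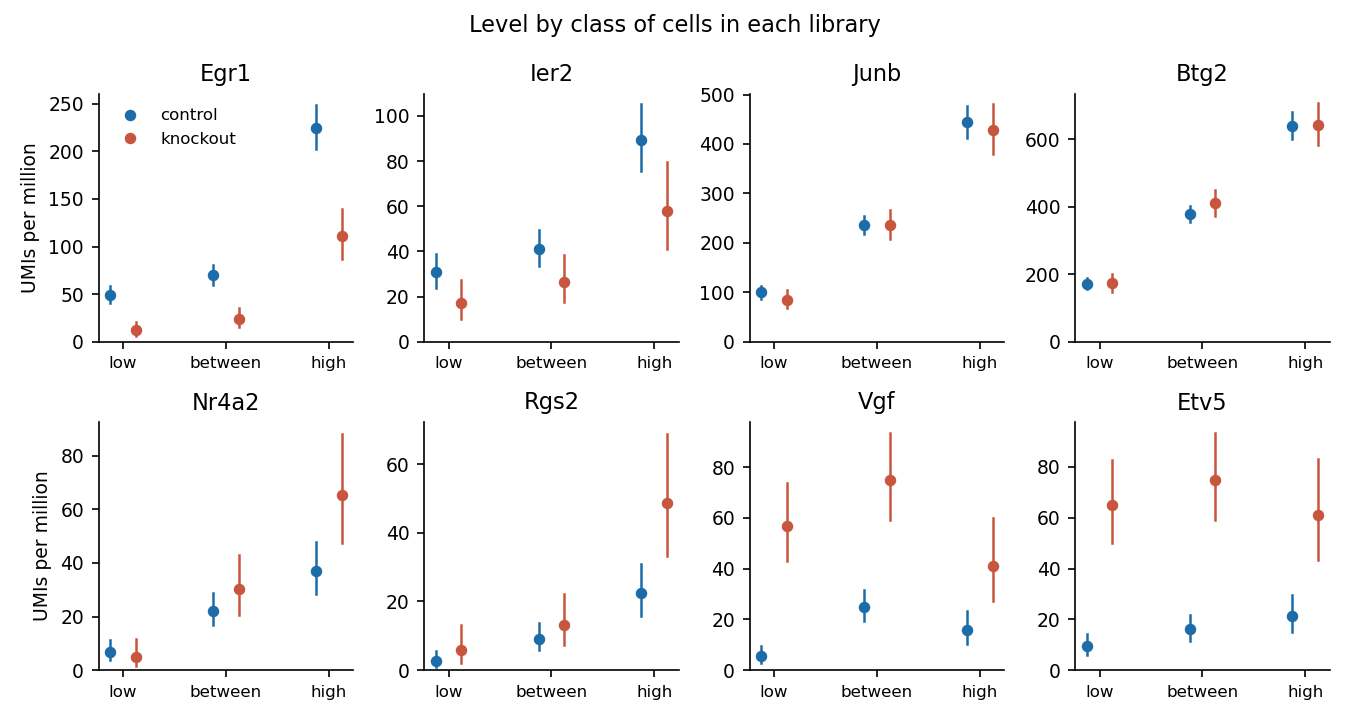
CPM (vertical axes, each from 0) of 8 genes in low cells, cells between and high cells of the control and the knockout library, with 95% Poisson intervals. Junb and Btg2 climb alike in both libraries, Egr1 and Ier2 are lower in the knockout in each class, and Vgf and Etv5 are higher there without climbing.

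Of 12 genes related to CIC, the repressor targeted in the knockout, 7 had enough UMIs and 2, *Egr1* and *Dusp4*, were called higher in high cells, where 6.94% of all genes were. *Etv5*, an ETS factor that CIC represses, stood at 9.50, 16.1 and 21.3 CPM in low, between and high control cells and at 65.0, 74.9 and 61.0 CPM in the knockout, so that it was 2.24-fold higher in high control cells (1.28 to 4.01) and 0.94-fold in the knockout (0.62 to 1.41). *Vgf*, a secreted neuropeptide precursor that is also an activity-induced gene, stood at 5.61, 24.9 and 15.8 CPM in the control and at 57.0, 74.9 and 41.1 CPM in the knockout. It was 2.82-fold higher in high control cells (1.40 to 5.98) and 0.72-fold in the knockout (0.44 to 1.16), and the intervals did not meet. *C1ql1*, a secreted C1q-like protein gene, was higher in the knockout in high (47.2 against 9.74 CPM), between (55.9 against 4.21 CPM) and low cells (84.0 against 6.48 CPM). *Cic* itself stood at 63.3 CPM in control and 56.4 CPM in knockout high cells, a 3′ count that need not cover the deleted exons and so does not check the deletion. In low cells, where the sum of the 4 early genes is at most 2 UMIs, *Etv5*, *Vgf* and *C1ql1* were 6.85-fold, 10.2-fold and 13.0-fold higher in the knockout. Over the 9408 genes, 262 (2.78%) had intervals of the high over low ratio that did not meet between the libraries, and 43 were past 1 in opposite directions.

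Free RNA in the suspension held the early genes at high levels. Barcodes with 20 to 100 UMIs, taken as droplets without a cell, held *Fos* at 2015 CPM in the control and 2070 in the knockout, above the 1420 and 1349 CPM of high cells, *Fosb* at 660 and 502, *Nr4a1* at 285 and 251 and *Npas4* at 106 and 90.5. The same droplets held the 98 respiratory chain genes at 46067 and 44432 CPM, against 16234 and 16282 CPM in high and 9662 and 9916 CPM in low cells. None of 29040 control and 75813 knockout droplets held 10 or more UMIs of the 4 genes, which allows a share of up to 0.0103% and 0.00396%, and the largest sum was 9 in both. The droplets are shallow, with medians of 89 and 44 UMIs, so that a sum there is not on the scale of a cell. Subtracting the droplet profile at 2% of each cell's UMIs left all 653 higher and 159 lower genes called and added 40 and 6. The 2% was set and not estimated, and it was taken from high and low cells alike with the classes unchanged. Such a subtraction moves each ratio of high over low cells further from equal levels. Keeping the calls therefore cannot show whether free RNA contributed to them.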

How the data were processed

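The authors deposited raw UMI counts per gene and barcode, 1 matrix per genotype. The study's methods name an mm10 reference and the submitters' processing notes name Cell Ranger 8.0.1 and mm39, while the matrix header gives Cell Ranger 4, so the build of the gene models is uncertain and no coordinate was taken from the files. Counts were read with Python 3.11.15, numpy 2.4.6 and scipy 1.17.1. The authors' own cell filter and clusters were not used here. The classes, genes and lists were chosen with earlier results of these data known.

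Control and knockout groups are the labelled genotypes, 1 library each, with 16336796 and 6777071 UMIs in all barcodes. Counts were summed over the cells of a class per library, leaving out mitochondrial (mt-) and ribosomal protein genes (Rpl, Rps, Mrp) and the 4 class genes from the denominator, and ratios were given exact 95% Poisson intervals. Shares of cells have exact (Clopper-Pearson) 95% intervals. Genes with at least 30 UMIs in each library were compared. The genes named were the listed genes and the 15 others with the strongest bound in each direction, and others are said to have been chosen after their values were seen. Cells were thinned to 3000 UMIs by drawing UMIs without replacement. Cell sex was read from *Xist* and Y-linked counts. No doublets were removed for the values reported. As an alternative, 8 control cells and 1 knockout cell that Scrublet (scanpy 1.11.5) scored highest were left out. Of 18 genes of the integrated stress response, 17 were in the files. Alternatives changed the class limits, cell filters, scaling, gene filter, fold and free-RNA correction. Some genes are not reported here or drawn in the figures.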

Additional observations from a re-analysis of the deposited data

Results flagged for a closer look

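For 4 listed genes the ratio of high over low cells lay on opposite sides of 1 in the libraries, with intervals that did not meet, and the difference was not tested. Over all 9408 genes tested, 262 (2.78%) had intervals that did not meet, whichever side of 1 their ratios lay on. Nothing is read from the number of listed genes. In control cells *Vgf* stood at 2.82 (1.40 to 5.98), and in knockout cells at 0.722 (0.439 to 1.16). *Crtc2*, a CREB coactivator, stood at 1.95 (1.07 to 3.59) and 0.109 (0.00257 to 0.715), the latter from 1 UMI in high and 14 UMIs in low cells. *Diablo*, a mitochondrial death factor, stood at 1.15 (1.04 to 1.26) and 0.889 (0.767 to 1.03). *Hspa5*, a chaperone of the endoplasmic reticulum, stood at 1.23 (1.10 to 1.38) and 0.878 (0.727 to 1.06).

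Data outside the comparison of cells also held the 4 genes. In droplets with 20 to 100 UMIs their summed level was 3066 CPM (control) and 2913 CPM (knockout). Among barcodes left out for fewer than 5 *Reln* UMIs, 1 knockout barcode held 10 or more UMIs of the 4 genes.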

How the results depend on the processing

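No paired analysis was possible because each genotype had 1 library. With classes cut on thinned counts 100 genes were lower, and with a minimum of 100 UMIs per gene also 100. With the sum scaled to 6000 UMIs, 12.6% of control and 9.74% of knockout cells were high. With high at 20 UMIs or more the shares were 5.53% and 5.0%, with 1009 genes higher and 434 lower. Without respiratory-high cells they were 14.0% and 13.1%, with 133 higher and 68 lower. Female cells alone gave 339 and 62, thinning 215 and 39, a fold of at least 2 gave 269 and 39, and thinning without respiratory-high cells, an alternative chosen after seeing the data, gave 73 and 20. Changes of side were followed only for listed or named genes that were called with all cells. Ratios of these genes changed side as follows, and the cause was not tested. Without respiratory-high cells, knockout ratios were 0.736 for *Tceal9*, 0.941 for *Bex1*, 0.906 for *Tmsb10*, 0.612 for *Calb2*, 0.723 for *Dusp8*, 0.999 for *Gadd45b* and 0.598 for *Pcp4*, *Chchd2* stood at 0.962 and 0.681 and *Hspe1* at 0.720 and 0.838. Male cells gave 1.44 for *C920021L13Rik* (knockout) and female cells 0.906 for *Map3k5* (control). Thinning gave 0.923 for *Hspe1* (knockout) and 0.998 for *Ppp1r15a* (control). Thinning without respiratory-high cells gave, in the knockout, 0.425 for *Tceal9*, 0.761 for *Selenow*, 0.845 for *Bex1*, 0.741 for *Cfl1*, 0.634 for *Tmsb10*, 0.0 for *Atf3*, 0.354 for *Calb2*, 0.978 for *Mapk3*, 0.899 for *Nhlh2* and 0.543 for *Pcp4*, in the control 0.977 for *Ppp1r15a*, and in both 0.718 and 0.761 for *Chchd2*, 1.01 and 1.14 for *Fibcd1* and 0.669 and 0.815 for *Hspe1*. No ratio of the called genes followed here changed side under the other settings, among which the free-RNA subtraction by its form moves ratios only further from equal levels. With 64 knockout high cells, genes of few UMIs have wide intervals.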
